A study of Homo sapiens with 12 samples.

Results

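The genes described here encode the cohesin ring, the proteins that load and release it, and CTCF. They are 10 of the 19974 protein-coding genes annotated on chromosomes 1 to 22 and X, namely SMC1A, SMC3, RAD21, STAG1, STAG2, NIPBL, WAPL, PDS5A, PDS5B and CTCF. They were listed by name, with no measured value in the rule, though the list was drawn up with earlier results of these data known. The called intervals of the 9 marks that have a library were read over the span of each gene and 5 kb on either side (GRCh38). The material was KBM-7, a human cell line established from chronic myeloid leukaemia that carries most chromosomes in a single copy. Chromatin immunoprecipitation and sequencing was done with 1 library for each of 9 marks, H3K4me3, H3K9ac, H3K27ac, H3K4me2, H3K4me1, H3K79me2, H3K36me3, H4K16ac and H3K27me3, without any treatment or genotype to compare. A further 3 libraries were inputs: the labels assign 1 to H3K9ac, H3K4me3 and H3K79me2, another to H3K4me1, H3K4me2, H3K27ac, H4K16ac and H3K36me3, and the last to H3K27me3. The deposited values are positions of called intervals only, so library depth is unknown, no value could be set against replicate error, and no test was made.

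Cohesin is a ring of SMC1A, SMC3 and RAD21 with a STAG subunit attached, and it holds sister chromatids together and extrudes loops of DNA in interphase. NIPBL loads the ring and drives extrusion, WAPL with the PDS5 proteins releases it, and CTCF bound to DNA stops it at loop anchors. Mutations in cohesin genes, STAG2 above all, recur in myeloid leukaemias. Of the marks, H3K4me3, H3K9ac and H3K27ac are known from active gene starts, H3K79me2 from the early part and H3K36me3 from the later part of transcribed genes, H3K4me1 and H3K4me2 from starts and enhancers, and H3K27me3 from genes silenced by Polycomb complexes.

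Every cohesin and CTCF gene carried the marks of an active start, and none was covered by H3K27me3. Within 1 kb of an annotated start, H3K4me3 lay at 10 of the 10 genes, against 52.8% of all protein-coding genes. H3K9ac lay at 10 of 10 (all genes 56.3%), H3K4me2 at 10 of 10 (all genes 68.1%) and H3K79me2 at 10 of 10 (all genes 37.8%). The combination of H3K4me3, H3K9ac and H3K4me2 was present at 10 of 10, beside 51.5% of all genes. H3K4me1 was at 0 of the 10 starts, whereas 21.4% of all genes had it there. That count depended on the window, since 5 of 10 had H3K4me1 within 2.5 kb. The share of all genes was not counted at that window, so the wider count has no background beside it. Since all genes include those with no mark of an active start, a narrower background was taken of the 5566 genes that have H3K4me3 at the start and are at least as long as the shortest of the 10, RAD21 with 28.8 kb. In it H3K4me2 was at 100% of starts and H3K9ac at 97.1%, so that the 10 of 10 counts for these marks are near what genes with H3K4me3 have. H3K79me2 was at 69.0% of these starts and H3K4me1 at 25.6%.

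The marks that divided the 10 genes were H3K27ac and, at RAD21 alone, H3K27me3 and H3K36me3. H3K27ac was at the start of 4 of 10, RAD21, STAG1, STAG2 and CTCF, against 6.61% of all genes and 11.0% of the long genes with H3K4me3. With at least 500 bp covered, the count fell to 2 of 10, and no share of all genes was taken at that threshold. H3K27me3 was within 1 kb of 1 of 10, RAD21, against 29.2% of all genes but 9.36% of the long genes with H3K4me3, a share near that of the 10. H3K36me3 and H4K16ac were deposited with the same 45639 intervals on the chromosomes used. They count as 1 set here, and which of the antibodies it reflects cannot be told apart. That set was within 1 kb of an end of 1 of 10, again RAD21 (all genes 10.6%, long genes with H3K4me3 12.3%). The annotation gives no start for RAD21, so both of its ends were taken, as for 4162 genes in the background, and the H3K36me3/H4K16ac lay at the end without H3K4me3. SMC1A, SMC3, NIPBL, WAPL, PDS5A and PDS5B had the same 4 sets at the start, H3K4me3, H3K9ac, H3K4me2 and H3K79me2, a pattern found at 3573 genes (17.9%). STAG1, STAG2 and CTCF had these and H3K27ac, as did 550 genes in all (2.75%).

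Over the whole span with 5 kb on either side, H3K4me3 was found at 10 of 10 genes (all genes 58.4%), H3K9ac at 10 of 10 (62.9%), H3K4me2 at 10 of 10 (78.2%), H3K79me2 at 10 of 10 (47.6%) and H3K36me3/H4K16ac at 10 of 10 (56.3%). H3K27ac stayed at the same 4 genes (all genes 10.9%). H3K4me1 was at 9 of 10 (all genes 56.4%), with SMC3 the gene that lacked it. H3K27me3 was at 2 of 10, RAD21 and SMC3 (all genes 44.4%). The long genes with H3K4me3 were closer to these counts: over the same span 97.6% had H3K9ac, 100% H3K4me2, 81.4% H3K79me2, 91.2% H3K36me3/H4K16ac, 17.3% H3K27ac, 79.3% H3K4me1 and 30.7% H3K27me3. At RAD21 and SMC3 the H3K27me3 lay outside the gene, so that 0% of the span of any of the 10 genes was covered by it.

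**Figure D1:**
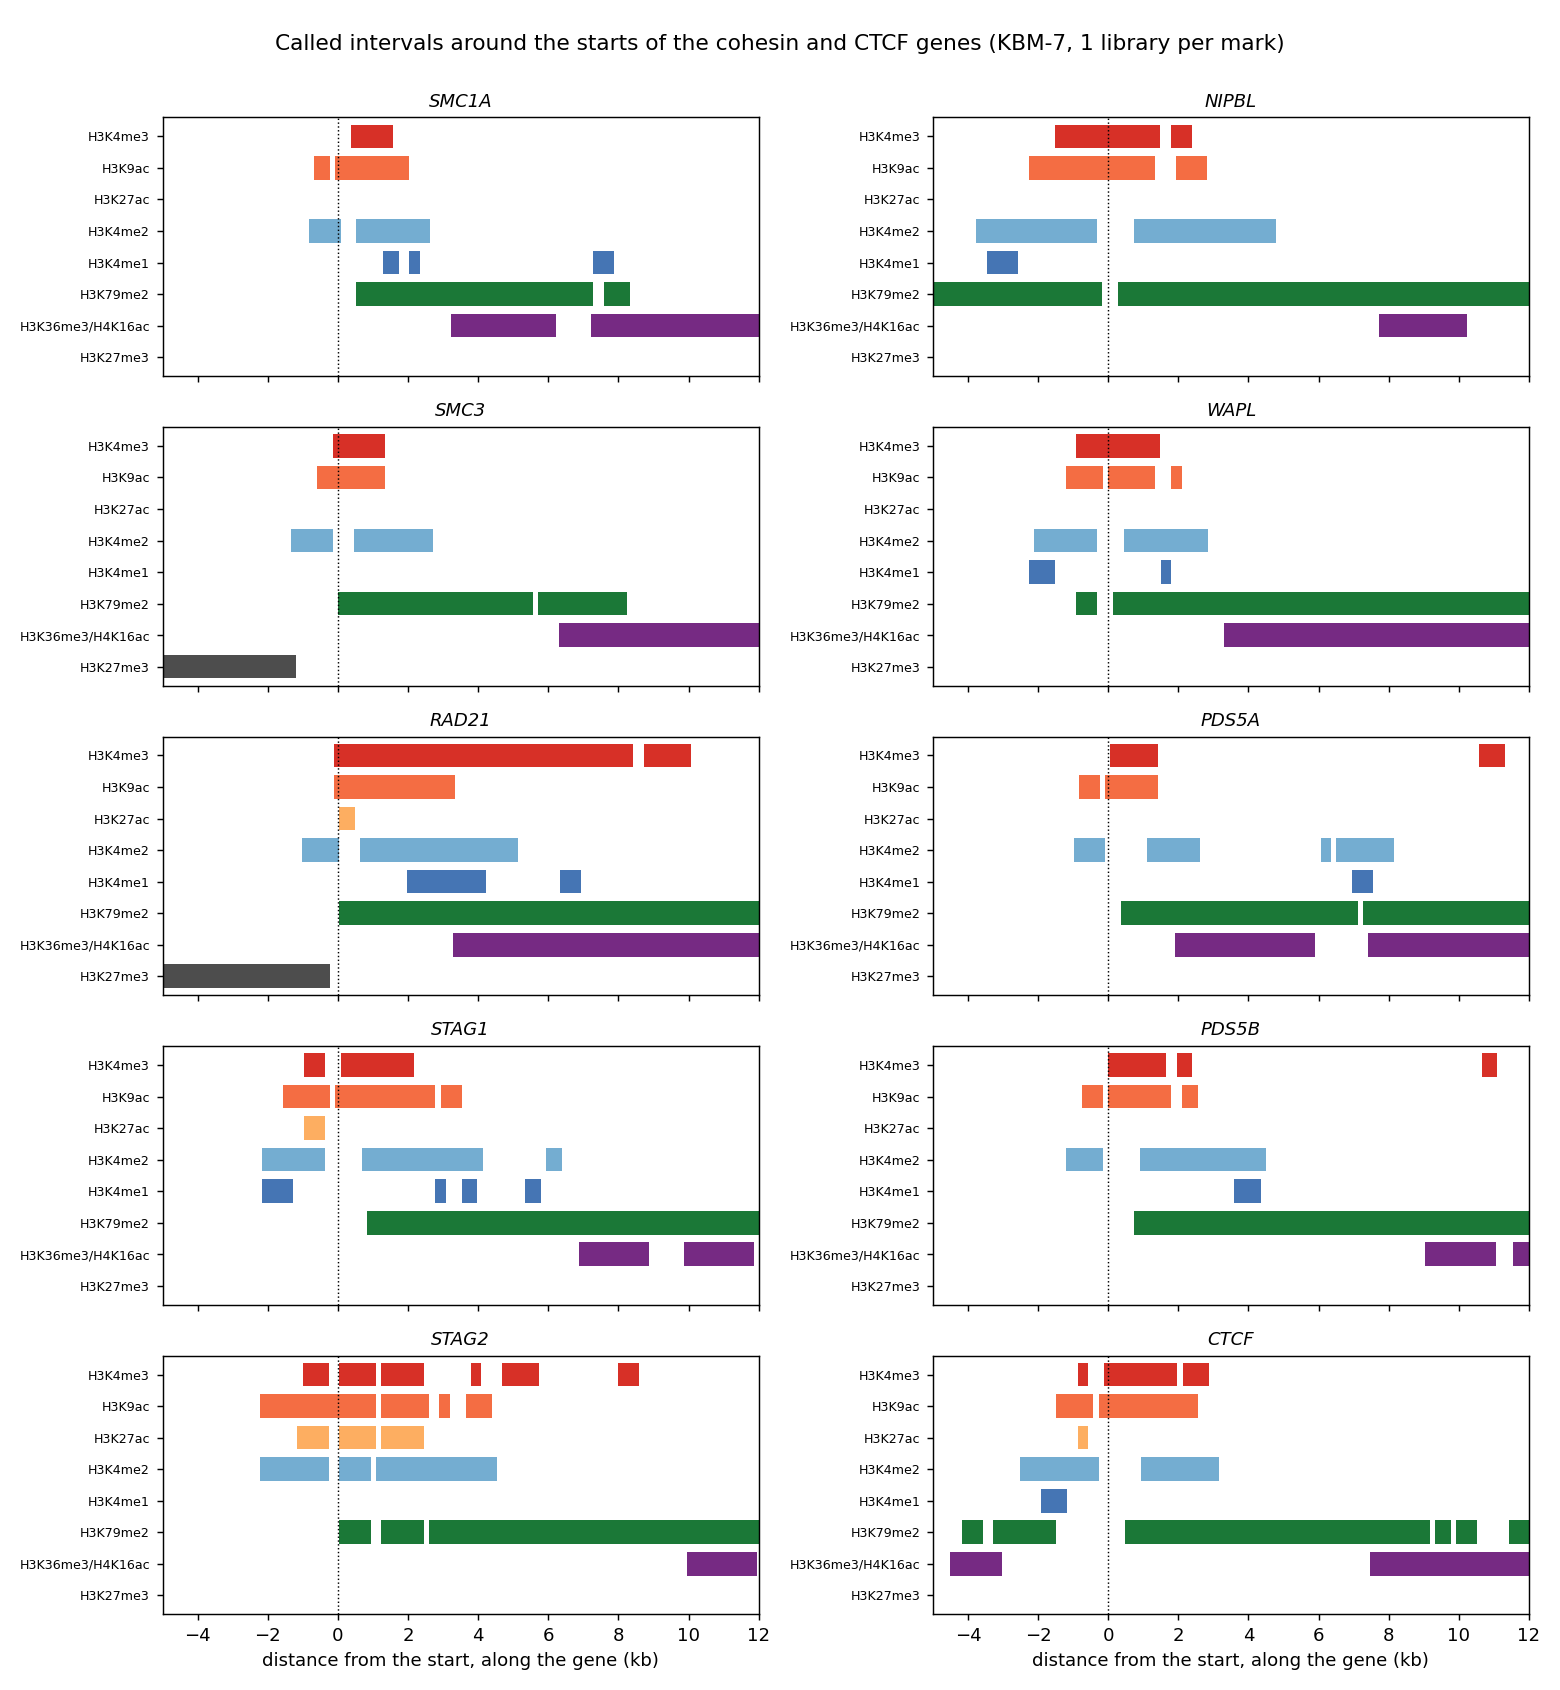
Called regions of each mark from 5 kb before to 12 kb after the start of each gene, in kb along the direction of the gene, with the start at the dotted line; each bar is 1 region in 1 library, and for RAD21 the end with H3K4me3 stands for the start. H3K9ac covers the start in all 10 panels, H3K4me2 is broken there in 8, H3K27ac appears in 4, and the H3K4me3 region of RAD21 reaches 8.43 kb into the gene.

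The ring subunits were described first, with positions in bp from the start, negative before it. SMC1A, an ATPase arm of the ring, lies on chromosome X at 53374149 to 53422728 on the minus strand, with 2 annotated starts 74 bp apart. Its H3K4me3 began only at 378 and ended at 1577, and its H3K9ac region of 2100 bp ran from -72 to 2027. The start of RIBC1, a protein-coding gene on the opposite strand, lay 145 bp before, and a further H3K9ac region of 450 bp lay on that side, from -672 to -223. H3K4me1 was near SMC1A as 4 short regions of 300 to 600 bp, of which 2 lay from 1278 to 2327 at the inner edge of the start.

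SMC3, the other ATPase arm, lies on chromosome 10 at 110567695 to 110606048 on the plus strand. It had 1 H3K4me3 region of 1500 bp, from -144 to 1355, and 1 H3K9ac region of 1950 bp with the same inner edge. No H3K4me1 or H3K27ac was called in its window. A short H3K27me3 region of 4000 bp, narrower than the median of that set (5000 bp), lay from -5194 to -1195, partly over LOC105378483, a non-coding gene whose start is 387 bp before that of SMC3 on the opposite strand. SMC1A and SMC3 were thus alike in the sets they had at the start and differed nearby in H3K4me1, found at SMC1A, and in H3K27me3, found at SMC3.

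RAD21, the kleisin subunit that closes the ring, lies on chromosome 8 at 116845934 to 116874776. The end with the higher coordinate had 1125 bp of H3K4me3 within 1 kb and the other end had 0 bp, and its positions are counted from the end with H3K4me3. Its H3K4me3 region was 8550 bp wide, from -124 to 8425, and was deposited as 1 interval. By width it was number 4 of 14803 H3K4me3 regions, whose median was 900 bp, and a further H3K4me3 region of 1350 bp followed from 8726 to 10075. H3K9ac spanned 3450 bp from the same outer edge, and H3K27ac 450 bp, from 26 to 475. Upstream, an H3K27me3 region of 37000 bp ran from -37224 to -225. It was joined from 65 deposited intervals and was number 1907 of 117702 regions by width.

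Chromosome 8 is known to be present in an extra copy in KBM-7, and regions called there were wider than elsewhere. The median H3K4me3 region was 1650 bp wide on chromosome 8 and 900 bp on the other chromosomes, and that of H3K36me3/H4K16ac was 12500 bp on chromosome 8 and 3500 bp elsewhere. Set beside the 515 H3K4me3 regions of chromosome 8, that of RAD21 was number 2, and set beside the 14288 of the other chromosomes it ranked number 3. The part of the copy number in the width of the RAD21 region was not tested.

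STAG1 and STAG2 encode alternative subunits that bind RAD21 and CTCF, and both had H3K27ac at the start. STAG1, the longest of the 10 genes with 416 kb, lies on chromosome 3 at 136336236 to 136752378 on the minus strand. Its H3K27ac region of 600 bp lay from -972 to -373, with the same edges as an upstream H3K4me3 region, on the side of the divergent transcript STAG1-DT that starts 293 bp before. Its main H3K4me3 region of 2100 bp ran from 78 to 2177 without H3K27ac. STAG2 lies on chromosome X at 123960560 to 124102656 on the plus strand, and has further annotated starts at 752 and 1498 bp. It had 3 H3K27ac regions, of 900, 1050 and 1200 bp, which together covered 2991 bp of the joined windows around its 3 starts. They ran from -1159 to -260, from 41 to 1090 and from 1241 to 2440, and the last pair had the same edges as H3K4me3 regions. So H3K27ac lay on both sides of the STAG2 start and on the upstream side at STAG1.

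NIPBL, the loader, lies on chromosome 5 at 36876769 to 37066413 on the plus strand. Its H3K4me3 region of 3000 bp (-1518 to 1481) and its H3K9ac region of 3600 bp (-2268 to 1331) extended to both sides of the start. The divergent NIPBL-DT starts 75 bp before it. On that side NIPBL also had an H3K79me2 region of 5550 bp, from -5718 to -169. WAPL, the release factor, lies on chromosome 10 at 86435256 to 86521792 on the minus strand, and WAPL-DT starts 155 bp before it. Its H3K4me3 region was 2400 bp wide, from -908 to 1491, and it too had upstream H3K79me2, of 600 bp.

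PDS5A and PDS5B encode paired partners of WAPL that bind the ring. PDS5A lies on chromosome 4 at 39822863 to 39977911 on the minus strand. No gene with an annotated start faces away from it, and its H3K4me3 lay on the gene side alone, 1350 bp from 61 to 1410. PDS5B lies on chromosome 13 at 32586452 to 32778019 on the plus strand, with PDS5B-DT starting 7 bp before it. Even so, its H3K4me3 of 1650 bp began at -1 and ended at 1648. PDS5A had the narrowest H3K4me2 region at a start among the 10, 900 bp, beside 3600 bp at PDS5B. A further H3K4me2 region of 1500 bp at PDS5A began at 1111, just outside the window. CTCF, which binds DNA through its zinc fingers, lies on chromosome 16 at 67562526 to 67639177 on the plus strand. Its main H3K4me3 region was 2100 bp, from -125 to 1974. Its H3K27ac, 300 bp from -875 to -576, coincided with a small upstream H3K4me3 region, and CTCF-DT starts 217 bp before CTCF.

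The widest H3K4me3 region at the start thus had a median of 1875 bp over the 10 genes, against 1200 bp over the 10548 genes with the mark there. The order was RAD21 (8550 bp), NIPBL (3000 bp), WAPL (2400 bp), STAG1 and CTCF (2100 bp each), PDS5B (1650 bp), SMC3 (1500 bp), PDS5A (1350 bp), and SMC1A and STAG2 (1200 bp each). The lowest 2 were therefore at the median of all genes with the mark by their widest region. At STAG2 that region was 1 of 3 at the start, of 750, 1050 and 1200 bp. Together these covered 2991 bp of the joined windows around its 3 starts. H3K9ac was widest at NIPBL (3600 bp), RAD21 (3450 bp) and STAG2 (3300 bp) and narrowest at WAPL (1350 bp), with a median of 2475 bp against 1500 bp. H3K4me2 had a median of 2925 bp, against 2250 bp. Nothing in the data gives the error of a width, so neighbours in these orders cannot be separated.

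**Figure D2:**
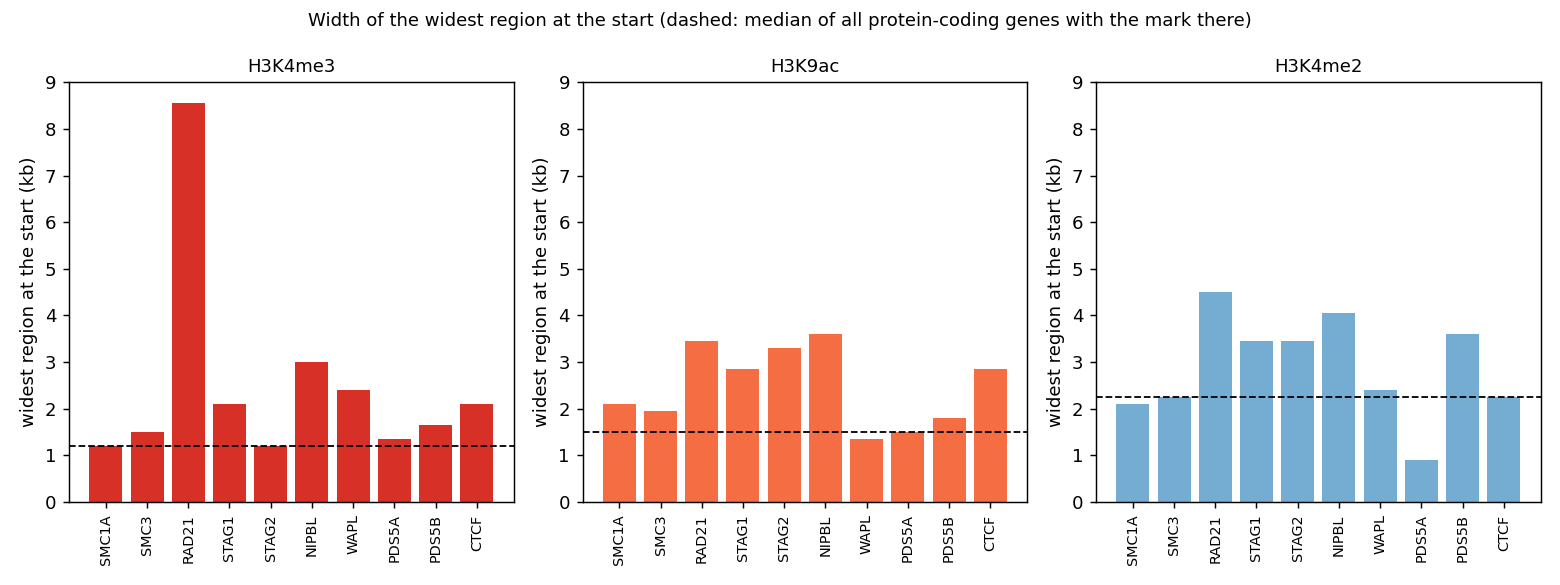
Width in kb of the widest region within 1 kb of the start of each gene, for H3K4me3, H3K9ac and H3K4me2, as 1 bar per gene from 1 library per mark; the dashed line is the median of all protein-coding genes with the mark there. RAD21 stands at 8.55 kb for H3K4me3, while SMC1A and STAG2 stand at the dashed line of 1200 bp. At STAG2 this is the widest of 3 H3K4me3 regions at the start.

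At the start itself the marks alternated. H3K9ac covered the first base of 10 of 10 genes, and of 68.7% of the 8795 genes that have H3K4me3 at an annotated start. The first base is that of the annotated gene span, so in genes with several starts it can differ from the start with H3K4me3. H3K4me3 covered it in 6 of 10 (background 61.0%), the exceptions being SMC1A, STAG1, STAG2 and PDS5A. H3K4me2 covered it in 2 of 10, RAD21 and SMC1A (background 55.9%). Even there H3K4me2 ended 25 bp (RAD21) and 77 bp (SMC1A) after the start and resumed at 626 and 528 bp. In the other 8 it lay on both sides of an uncovered gap, as in 36.2% of the background. That gap was 300 bp at STAG2, 600 bp at SMC3, 750 bp at WAPL, 1050 bp at STAG1, NIPBL and PDS5B, and 1200 bp at PDS5A and CTCF. H3K79me2 covered the first base of 0 of 10 (background 10.2%) and began within the gene 6 bp (SMC3) to 828 bp (STAG1) after it.

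The promoter sequences of 9 of the genes, RAD21 not included, were taken from RefSeq (GRCh38.p14), 250 bases before to 50 bases after each start. Shown are those of CTCF, with the most CG dinucleotides of the members' promoters, of PDS5B, of SMC3, whose GC share was lowest, and of the first start of STAG2, with CG in capitals. They lie at chr16:67562276-67562575, chr13:32586202-32586501, chr10:110567445-110567744 and chrX:123960310-123960609, all on the plus strand.
CTCF: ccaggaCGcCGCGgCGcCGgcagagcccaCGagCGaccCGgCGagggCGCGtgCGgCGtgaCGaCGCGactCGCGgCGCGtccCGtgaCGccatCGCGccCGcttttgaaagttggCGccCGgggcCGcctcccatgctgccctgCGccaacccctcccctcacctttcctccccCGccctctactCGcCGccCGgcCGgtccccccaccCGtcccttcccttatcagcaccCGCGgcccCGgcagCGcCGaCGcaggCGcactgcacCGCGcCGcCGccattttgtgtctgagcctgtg
PDS5B: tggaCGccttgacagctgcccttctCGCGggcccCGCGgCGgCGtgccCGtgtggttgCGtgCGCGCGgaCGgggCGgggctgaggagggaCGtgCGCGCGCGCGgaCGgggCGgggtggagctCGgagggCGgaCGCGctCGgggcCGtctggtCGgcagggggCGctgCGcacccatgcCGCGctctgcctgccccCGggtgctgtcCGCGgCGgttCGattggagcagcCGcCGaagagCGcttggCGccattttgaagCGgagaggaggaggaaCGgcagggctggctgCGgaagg
SMC3: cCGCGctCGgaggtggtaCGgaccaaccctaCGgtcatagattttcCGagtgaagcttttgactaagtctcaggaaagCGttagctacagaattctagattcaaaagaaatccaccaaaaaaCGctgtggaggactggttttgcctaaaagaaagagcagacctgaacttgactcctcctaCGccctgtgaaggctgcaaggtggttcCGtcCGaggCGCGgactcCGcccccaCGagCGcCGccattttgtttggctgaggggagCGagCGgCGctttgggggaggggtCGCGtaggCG
STAG2: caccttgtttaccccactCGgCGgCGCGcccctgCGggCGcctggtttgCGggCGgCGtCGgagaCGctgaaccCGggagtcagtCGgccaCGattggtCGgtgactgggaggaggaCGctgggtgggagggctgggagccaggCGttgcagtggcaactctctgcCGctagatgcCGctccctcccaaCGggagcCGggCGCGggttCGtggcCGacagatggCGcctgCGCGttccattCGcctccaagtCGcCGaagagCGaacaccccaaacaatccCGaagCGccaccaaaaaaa

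The 12 promoters of these 9 genes held 16 to 46 CG dinucleotides, with a median of 34, against a median of 21 over 22132 promoters of 15812 genes. CTCF had 46, PDS5A and PDS5B 45 each, WAPL 44, STAG1 37 and NIPBL 30. SMC3 had 23, close to the median of all promoters, and the later starts of STAG2 had 17 and 16. The GC share was 56.0% (SMC3) to 76.3% (WAPL), against a median of 62.3%. Short motifs were searched on both strands, and matches could overlap each other. The windows of a gene with several starts can overlap, as those of SMC1A do, so genes with a motif in any of their windows were counted, for the 9 genes and for all 15812. GGGCGG, the GC box, was found in 9 of 9 (64.2% of all genes), and TATAAA, the TATA box, in 0 of 9 (12.4%). CCAAT was in 5 of 9 (42.1%) and CCGGAAG, an ETS-type motif, in 2 of 9 (16.5%), NIPBL and SMC1A. GCCATNTT, the YY1 core, was in 3 of 9 (9.66%), CTCF, PDS5B and SMC3. GGNGGCAG, a part of the CTCF motif, was in 4 of 9 (23.3%), and CTCF itself was not among these. A match of letters in this window is a description and no evidence of binding.

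Along the genes, H3K79me2 came first and H3K36me3/H4K16ac followed, and both covered more of the cohesin and CTCF genes than of most long genes with H3K4me3. H3K79me2 covered a median of 31.5% of the gene (lowest SMC1A with 15.4%, highest RAD21 with 54.1%). The 5566 long genes with H3K4me3 had a median of 5.45%, with quartiles of 0.369% and 17.5%, and 10 of the 10 genes were above that median. H3K36me3/H4K16ac covered a median of 75.3% (STAG1 42.1% to SMC1A 89.5%), against a median of 42.5% with quartiles of 12.1% and 72.5%, and 9 of 10 were above it. STAG1, the exception, was just below it. The mean position of H3K79me2 was 8.87% (SMC1A) to 28.1% (CTCF) of the way along the gene. The background median was 10.1%, over the 3652 long genes with H3K4me3 and an annotated start that carried H3K79me2. The mean position of H3K36me3/H4K16ac was 53.3% (SMC1A) to 64.5% (NIPBL), against 55.7% over the 4198 such genes that carried that set.

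**Figure D3:**
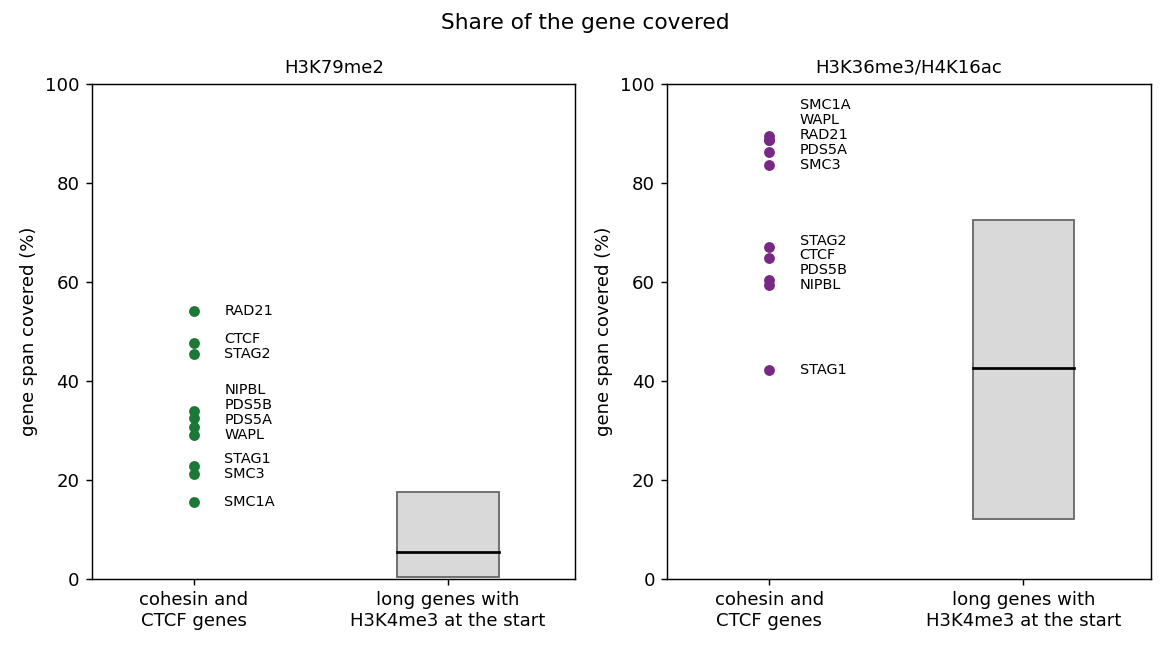
Percent of the gene span covered by H3K79me2 (left) and H3K36me3/H4K16ac (right), 1 point per cohesin or CTCF gene, beside the median (line) and quartiles (box) of the 5566 long genes with H3K4me3 at the start; 1 library per mark. All 10 points lie above the line for H3K79me2, and 9 of 10 for H3K36me3/H4K16ac, with STAG1 at 42.1%.

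H3K79me2 filled the early part of the genes in few pieces at some and in many at others. STAG2 had a single region of 60.3 kb, from 2.59 to 62.9 kb, which was number 6 by width of 31865 H3K79me2 regions with a median of 900 bp. PDS5B had one of 44.5 kb (number 29) and PDS5A one of 39.5 kb (number 38). At STAG1 the mark was in 39 pieces, the longest of 14.7 kb, although they covered 94.7 kb in all, the most of the 10 genes. SMC3 had the lowest value for the longest region, 5.55 kb, and 21.1% cover. NIPBL had 33.9% in 19 pieces, PDS5B 32.4%, PDS5A 30.7% and WAPL 29.1%. Beyond the midpoint of the gene H3K79me2 covered 14.1% at CTCF, 8.36% at RAD21 and 0.949% or less at each of the other 8.

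H3K36me3/H4K16ac started within 1.91 kb (PDS5A) to 9.94 kb (STAG2) of the start and covered the part beyond the midpoint by 100% at RAD21 and SMC3, 99.9% at WAPL, 99.4% at PDS5A and 96.5% at SMC1A. It was 94.4% at STAG2, 87.5% at PDS5B, 86.8% at NIPBL, 74.8% at CTCF and 56.1% at STAG1. STAG1 was again the gene with the most interrupted cover, in 48 pieces, and 39.5% of it had neither of these sets, against 0.0901% of RAD21. The background median for neither was 47.6% (4686 genes). The set ran past the annotated end of 9 genes, by 0.087 kb at NIPBL to 3.48 kb at PDS5B, and by 22.7 kb at STAG1, where the region continued into the neighbouring gene PCCB. At SMC1A it stopped before the gene end. RAD21 had the widest overlap of the sets, with 79.2% of its H3K79me2 also under H3K36me3/H4K16ac, and STAG1 the smallest with 19.1%. The background median of that overlap was 16.8%, over the 3652 genes that carried H3K79me2. RAD21 lies on chromosome 8, where regions of both sets were wider: the median of H3K79me2 was 1950 bp there and 900 bp elsewhere. The part of that in the RAD21 values was not tested.

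**Figure D4:**
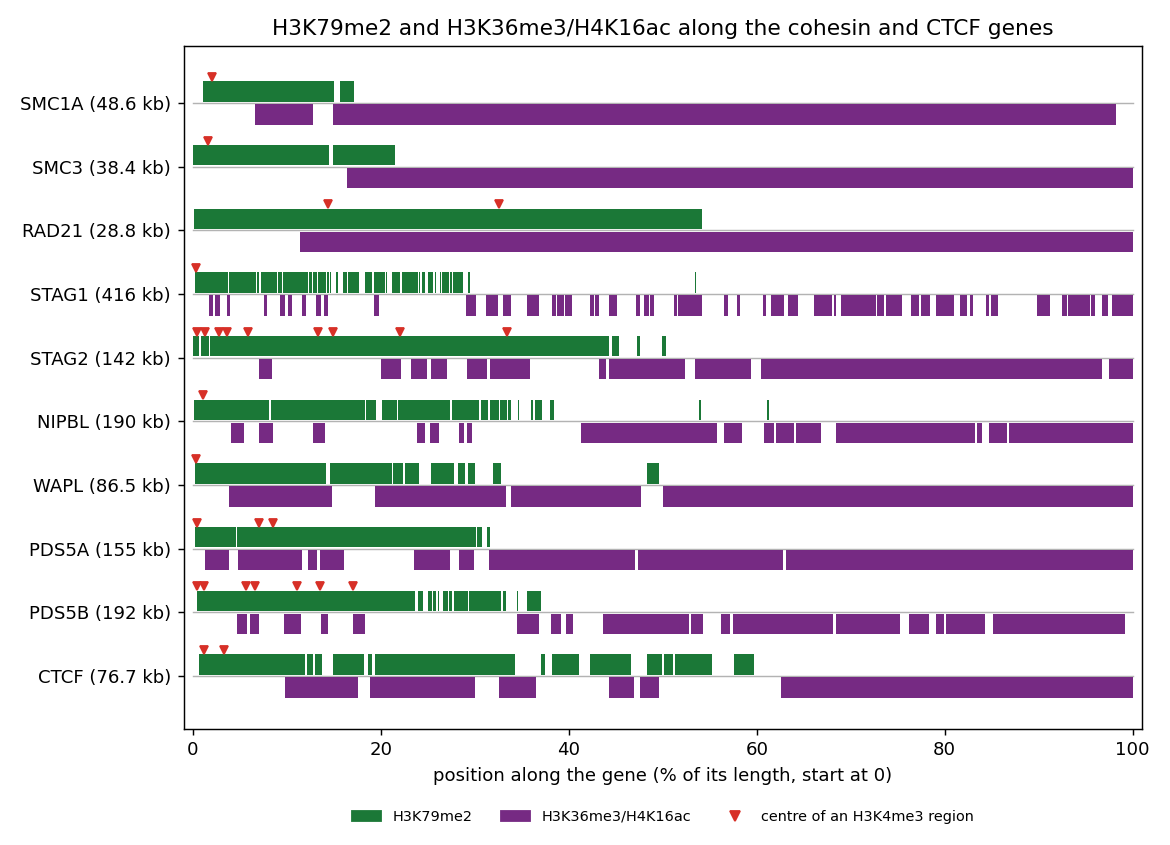
H3K79me2 (upper bars) and H3K36me3/H4K16ac (lower bars) along each gene, in percent of its length from the start, with triangles at the centres of H3K4me3 regions; 1 library per mark. H3K79me2 lies mostly before the midpoint in every gene, STAG1 is broken into 39 and 48 pieces, and STAG2 and PDS5B have H3K4me3 far inside the gene.

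H3K4me3 also appeared inside 4 of the genes, farther than 5 kb from the start, at STAG2, PDS5B, PDS5A and RAD21. Of the 4686 long genes with H3K4me3 at an annotated start, 22.5% had such a region. STAG2 and PDS5B had 5 each, a number reached or passed by 44 of those genes (0.939%), PDS5A had 2 and RAD21 had 1. That of RAD21 began at 8726 bp, close behind the H3K4me3 region at its start, which ended at 8425 bp. Those of STAG2 lay at 7.99 to 47.7 kb from the start and those of PDS5B at 10.6 to 32.8 kb. All 13 were short, 300 to 1350 bp. All 13 overlapped H3K79me2 and 10 overlapped H3K36me3/H4K16ac, while 0 overlapped H3K9ac and 0 overlapped H3K4me2. Over all 1146 H3K4me3 regions of that kind in the genome, 79.9% overlapped H3K79me2, 43.5% H3K36me3/H4K16ac, 22.0% H3K9ac and 35.2% H3K4me2. No other annotated gene was within 1 kb of the 13 regions. At the width of the median H3K4me3 region or above, 1 of the 4 genes was left, RAD21, as the regions of STAG2, PDS5B and PDS5A were all narrower than 900 bp. RAD21 lies on chromosome 8, where H3K4me3 regions were wider.

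H3K4me2 was inside 5 of the 10 genes with 16 regions (background 60.2% of genes) and H3K4me1 inside 7 of 10 with 13 regions (background 57.3%), shares close to the background. H3K9ac was inside 0 of 10 (background 25.5%) and H3K27ac inside 0 of 10 (background 7.55%). Of the 13 H3K4me1 regions, 7 overlapped H3K4me2. STAG1 had 5 H3K4me2 and 4 H3K4me1 regions, out to 286 kb from the start. WAPL had 2 and 1, and NIPBL, SMC3 and CTCF had none of any of the 5 sets. The genes differ in length and were not matched on it, and longer genes have more room for such regions.

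Paralogues differed more in the share of the gene covered than in the sets they carried at the start. STAG1 is 416 kb long and STAG2 142 kb. STAG1 had H3K79me2 over 22.7% of the gene, and STAG2 over 45.4%, but in kb STAG1 had more, 94.7 kb against 64.5 kb. STAG1 had H3K36me3/H4K16ac over 42.1%, and STAG2 over 67.0%, and again STAG1 had more in kb, 175 kb against 95.2 kb. PDS5A and PDS5B were near each other in H3K79me2 (30.7% and 32.4%), but H3K36me3/H4K16ac covered 86.2% of PDS5A and 60.3% of PDS5B. SMC1A and SMC3 had short H3K79me2 (15.4% and 21.1%) and long H3K36me3/H4K16ac (89.5% and 83.6%). With 1 library per mark none of these differences could be set against an error.

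Related genes were described with the same rule for the start. Among regulators of mitotic cohesin, such as MAU2, the partner of NIPBL, and the acetyltransferases ESCO1 and ESCO2, 9 of 10 had H3K4me3 at the start (all genes 52.8%). The exception, DDX11, a helicase, had 2341 bp of H3K4me2 there and no H3K4me3. H3K4me1 was within 1 kb at 0 of the 10 cohesin and CTCF genes, against 6 of 10 regulators and 21.4% of all genes. Within 2.5 kb, 5 of the 10 cohesin and CTCF genes had it, and neither the regulators nor all genes were recounted there. H3K27ac was at 4 of the 10 cohesin and CTCF genes, against 0 of 10 regulators and 6.61% of all genes, each with at least 1 bp covered. With at least 500 bp covered it was at 2 of the 10 cohesin and CTCF genes, and all genes were not recounted at that threshold. Condensin and SMC5/6 genes had H3K4me3 at 14 of 14 starts and H3K27ac at 3 of 14, SMC2, SMC4 and NCAPD2. The other DNA-binding or loop factors, YY1, ZNF143, MAZ, LDB1, ADNP and CHD8, had H3K4me3 at 6 of 6 starts and H3K27ac at 2 of 6, ZNF143 and LDB1.

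The meiotic counterparts of the ring and of CTCF mostly lacked the marks of an active start. H3K4me3 was at 0 of 5 starts (all genes 52.8%) and H3K79me2 at 0 of 5 (all genes 37.8%), and H3K27me3 was at 4 of 5 (all genes 29.2%). RAD21L1, a meiotic kleisin related to RAD21, was covered by H3K27me3 over 100% of its span and CTCFL, the germline paralogue of CTCF, over 91.6%. SMC1B, the meiotic form of SMC1A, had 85.0% and STAG3, the meiotic STAG, 44.5%. H3K4me2 was nevertheless within 1 kb of 2 of the 5 starts (all genes 68.1%), with 1844 bp at RAD21L1 and 927 bp at STAG3. STAG3 also had 300 bp of H3K9ac. REC8, the remaining meiotic kleisin, had 0% H3K27me3 and 72.6% H3K36me3/H4K16ac, with none of the 8 sets within 1 kb of its start. The median H3K79me2 cover was 31.5% in the cohesin and CTCF genes, 9.5% in the regulators, 0% in the meiotic genes, 9.47% in condensin and SMC5/6 and 53.5% in the other factors. For H3K36me3/H4K16ac the medians in the same order were 75.3%, 68.4%, 0%, 80.0% and 55.3%. High cover by that set was therefore shared with the regulators and with condensin and SMC5/6.

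**Figure D5:**
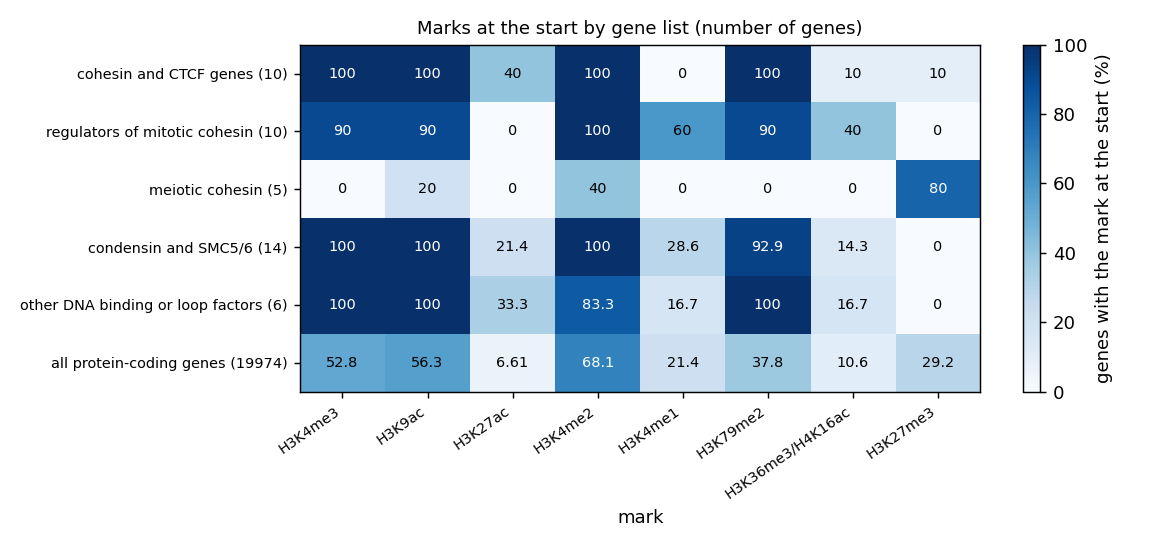
Percent of genes with each mark within 1 kb of the start, for the 10 cohesin and CTCF genes, 4 lists of related genes and all 19974 protein-coding genes; the shade and the number in a cell give the same percent, the number after a list its genes. The cohesin and CTCF genes have 100% for H3K4me3 and 10% for H3K27me3, against 0% for H3K4me3 and 80% for H3K27me3 in the meiotic list.

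Likeness to the members' median pattern was measured as a Euclidean distance over 11 standardised values. These were the covered bp of the 8 sets within 5 kb of the start, on a log scale, and the gene cover of H3K79me2, H3K36me3/H4K16ac and H3K27me3. On a log scale the presence or absence of a short region weighs heavily. The nearest genes outside the list were NUMA1, a spindle pole protein (0.475), OGA, the enzyme that removes O-GlcNAc (0.497), NMT1, an N-myristoyltransferase (0.517), SRP54, of the signal recognition particle (0.607), and KANSL2, of the NSL acetyltransferase complex (0.652). These genes were picked for the smallest distances, so the members cannot be compared with them. Of the members, which themselves set the median, PDS5B (1.04), WAPL (1.07), NIPBL (1.09) and SMC1A (1.4) were nearest to it. Their ranks among all genes were 75, 90, 111 and 618. RAD21 (4.37) and STAG2 (4.98) were farther from it than the median gene of the genome (4.33). PDS5A (2.22), SMC3 (2.91), CTCF (3.41) and STAG1 (3.83) lay between.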

How the data were processed

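The authors deposited 1 list of called intervals that gives for each its mark and its position in bp, with no count, score or signal; these positions are what was used. GRCh38, Bowtie2, cutadapt and MACS are named in the submitters' processing notes. Their versions, the calling thresholds and the input behind each call are not given in the sources used. Column starts followed a mix of conventions and were brought to positions counted from 1 by their remainder on the 50 bp grid. Intervals of the same mark that overlapped or touched were joined with Python 3.11.15, numpy 2.4.6 and pandas 2.3.3, and figures were drawn with matplotlib 3.10.9. Intervals under 1 further label, H3K9me3, which matched no sample, and stretches marked as free of any interval, were not used, and the inputs entered no comparison. Genes came from a RefSeq table (GRCh38.p14) without strand. Starts and strand of 15812 genes were read from the RefSeq promoter table, and for the other 4162 both ends were used.

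A gene had a mark where at least 1 bp was covered. Long genes are those of at least 28843 bp. All 10 members, each related list's exceptions for H3K4me3 where 4 or fewer, all meiotic genes and the 5 nearest genes are named; all 35 listed related genes matched. Other related genes, among them those with H3K27ac, and PCCB were named after their values were seen. The members and lists were chosen with earlier results of these data known. Joining and overlap functions were tested on simulated data. Alternatives were other windows, wider regions, at least 500 bp covered, other joining, and RAD21 left out; genes whose start is in the table, and long genes as background, were added after the data were seen.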

Additional observations from a re-analysis of the deposited data

How the results depend on the processing

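Of 97 alternative values for 30 results, 72 kept their value within the spread allowed and 25 moved. The counts for H3K4me3, H3K9ac, H3K4me2 and H3K79me2 at the start and over the span were among the 72, but some of them fell within that spread. H3K79me2 was at 8 of 10 starts within 500 bp, and at 8 of 10 with at least 500 bp covered. H3K4me2 was at 9 of 10 starts with only the wider regions. With only the wider regions of each set (its median width or more), the members with H3K27ac were 2 of 10 at the start and 2 over the span, those with H3K4me1 over the span 6, and those with H3K27me3 over the span 1; members with an inside region were 1 for H3K4me3, 1 for H3K4me2 and 1 for H3K4me1, and the median cover was 30.6% for H3K79me2 and 70.2% for H3K36me3/H4K16ac. With at least 500 bp covered, H3K27ac was at 2 starts and over 2 spans. The gene span alone gave 2 members with H3K27ac and 0 with H3K27me3, and 10 kb on either side gave 3 with H3K27me3. Within 2.5 kb of the start, H3K4me1 was at 5 members, H3K36me3/H4K16ac at 2 and H3K27me3 at 2. Among the 9 members whose start is annotated, H3K36me3/H4K16ac was at 0 starts and H3K27me3 at 0, since both lay at RAD21. Without RAD21 the median cover was 30.7% for H3K79me2 and 67.0% for H3K36me3/H4K16ac; with gaps of up to 1 kb joined it was 32.7% and 76.1%. With intervals as deposited, the median width at the start was 1500 bp for H3K4me3 and 2100 bp for H3K9ac. Except where stated, the cause of these moves was not tested. The shares of all genes were not recounted under these alternatives. The H3K4me3 counts of the related lists were the same within 2.5 kb; their other marks were not recounted at that window. No paired analysis was possible because each mark has 1 library, and for the same reason no library could be left out. Depth is unknown, so a mark that was not called may be below the limit of its library.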
